A study of Mus musculus with 16 samples.

Results

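Of the 4918 genes annotated as processed pseudogenes in the count table, 13 had a mean of at least 5 CPM (the count divided by the total of the library, times 1000000) over 16 RNA libraries labelled as mouse JG cells. The table lists 46078 genes in all. By the labels, JG cells are engineered juxtaglomerular cells, the kidney cells that make renin, and carry yellow fluorescent protein under the renin promoter (Ren1c-YFP). They received miR-106b or, as the control, a miRNA precursor that is not mammalian, and were harvested after 48 h. Each transfection gave 4 libraries of polyA RNA, isolated on oligo(dT), and 4 libraries of RNA recovered by immunoprecipitation of Ago2 (Ago2-IP), the Argonaute protein that holds miRNAs and the RNAs bound to them. The groups of 4 replicate cultures are called polyA or Ago2-IP control for the control precursor and polyA or Ago2-IP miR-106b for the miRNA, and the labels give the same engineered cells for all. Ren1 and the cardiac muscle markers go against this label, while other markers of renin and mural cells were present, as described before the levels. The libraries are called by their labels throughout. The polyA and the Ago2-IP libraries came from separate cultures.

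A processed pseudogene arises when a spliced mRNA is copied back into DNA and inserted elsewhere in the genome. Such a copy lacks the introns and usually the promoter of its parent gene, and in time it collects substitutions. Parents are often genes with abundant mRNA, and the ribosomal protein genes and Gapdh, the glycolytic glyceraldehyde-3-phosphate dehydrogenase, have many copies in the mouse. A short read can be told from those of the parent and of the other copies only where the sequence departs from theirs.

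The members were selected on their mean level, so that this level is a description. Of the 4918 processed pseudogenes, 1973 had 0 counts in all libraries and 135 had a mean of at least 1 CPM. The 13 members held between 16% and 21.9% of the counts on processed pseudogenes in a library, which in turn made up 0.0489% to 0.0964% of all counts. The members nearest the limit were Gm4929, with a mean of 5.72 CPM, and Gm20746, with 5.45 CPM. Just below it were Gm7117, with a mean of 4.83 CPM, and Gm7985, with 4.54 CPM. The 13 means ranged from 5.45 CPM to 42.6 CPM, and Gm14148 was the 1 member above 10 CPM. In polyA and in Ago2-IP RNA alike, 7 members had a mean of at least 5 CPM. The other 6 members (Rpl17-ps4, Gm14165, Rpl19-ps12, Rpl3-ps1, Gm11645 and Gm20746) reached 5 CPM in the mean of the polyA libraries only.

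Parents were taken from the name for 3 members (Rpl17-ps4, Rpl19-ps12 and Rpl3-ps1) and otherwise from the best spliced protein-coding match that covered at least 80% of the copy. Gapdh was the parent of 5 members. Gm14148 (chr2:151374008-151375047, plus strand, GRCm38) matched it at 95.9% identity, Gm4335 (chr15:93196595-93197598, plus) at 98.3%, Gm10481 (chr5:13042433-13043434, minus) at 99.1%, Gm6316 (chr12:69920472-69921491, minus) at 95.8% and Gm4929 (chr12:13752674-13753665, minus) at 93%. For Gm14148 and Gm6316 the closest match was the single-exon gene Gm10358, and Gapdh came next among spliced genes. Ribosomal proteins of the large subunit were the parents of 4 members: Rpl17-ps4 (chr4:63895545-63896099, minus, 98.4% identity), Rpl19-ps12 (chrX:6071222-6071812, plus, 96.3%), Rpl3-ps1 (chrX:13202571-13203780, plus, 99.8%) and Gm14165 (chr2:152353615-152354566, plus), a copy of the stalk protein gene Rplp0 at 97.2%. Gm11645 (chr2:143506411-143507059, minus) was a copy of Hmgb1, which encodes a chromatin protein, at 93.9% identity. Gm20746 (chr10:130592154-130592705, minus) was a copy of Ftl1, the ferritin light chain gene, at 97.8%. Its closest match was the single-exon gene Ftl1-ps1, at 98.2%, and Ftl1 came next.

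No full-length parent was found for Gm13722 (chr2:86090336-86093401, minus) and Gm14735 (chrX:72467302-72470389, plus). These were the longest members, with 3066 and 3088 bases against 549 to 1210 bases for the others. Stretches of Gm13722 matched transcripts of 504 protein-coding genes, and stretches of Gm14735 matched those of 457. Gm6316 lies in an intron of Atl1 and Gm14735 in an intron of Gabra3, each on the strand opposite to that gene. Rpl19-ps12 shares 80 exonic bases with the miRNA locus Gm27360 and Gm20746 shares 88 with Gm26445. The libraries were not strand-specific, so reads of overlapping genes cannot be told apart.

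**Figure D1:**
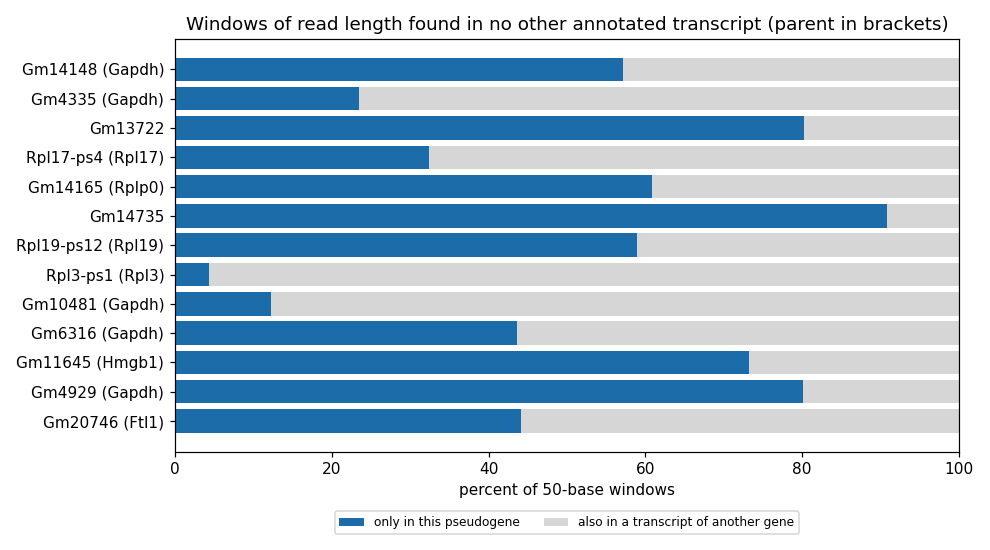
Percent of the 50-base windows (the read length) of each of the 13 pseudogenes found in no other annotated mouse transcript (blue, x axis), with the rest in grey and the parent in brackets. The share runs from 4.31% in Rpl3-ps1 to 90.8% in Gm14735.

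The plot of windows shows how unequal the members were in the sequence by which a read can be told from others. Of 3039 windows in Gm14735, 2760 occurred nowhere else in the annotated transcripts. Among the Gapdh copies this held for 755 of 943 windows in Gm4929, 549 of 959 in Gm14148, 423 of 971 in Gm6316, 224 of 955 in Gm4335 and 117 of 953 in Gm10481. In Rpl3-ps1 it held for 50 of 1161 windows, and 1061 of its windows were identical to a stretch of Rpl3 itself.

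The sequence of Rpl3-ps1 is shown because a single base carries all of its distinguishable windows. Rpl3-ps1 and the Rpl3 transcript differed at 2 of 1210 compared bases, C58A and T787C, counted from the first base of the pseudogene with the base of Rpl3 first. Both positions lie in the coding sequence of Rpl3. The 50 windows across T787C also occurred in other transcripts, and the 50 windows across C58A did not. The stretch around C58A, with the differing base in capitals, is chr15:80082480-80082578 (minus strand) in Rpl3 and chrX:13202579-13202677 (plus strand) in Rpl3-ps1, from the GENCODE M21 transcripts on GRCm38.
Rpl3: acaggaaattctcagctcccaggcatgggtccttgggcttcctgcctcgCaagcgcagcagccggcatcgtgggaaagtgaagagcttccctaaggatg
Rpl3-ps1: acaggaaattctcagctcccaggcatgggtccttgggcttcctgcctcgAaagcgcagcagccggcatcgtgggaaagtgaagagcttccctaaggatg

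A stretch of the Gapdh coding sequence is shown with its 5 copies because they compete for the same reads. It is the 60-base stretch with the most differences in which every copy differed at 1 to 4 bases, with bases that differ from Gapdh in capitals. Its position in Gapdh is chr6:125163307-125163366 (minus strand).
Gapdh: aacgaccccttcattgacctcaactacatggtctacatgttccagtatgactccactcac
Gm14148: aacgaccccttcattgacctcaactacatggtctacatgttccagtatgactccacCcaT
Gm4335: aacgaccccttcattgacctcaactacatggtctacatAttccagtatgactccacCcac
Gm10481: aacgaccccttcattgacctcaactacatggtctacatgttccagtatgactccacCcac
Gm6316: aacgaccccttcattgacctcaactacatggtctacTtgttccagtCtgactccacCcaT
Gm4929: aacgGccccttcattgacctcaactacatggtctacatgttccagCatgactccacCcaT

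T57C, counted from the first base of the stretch with the Gapdh base first, was present in all 5 copies, and C60T in 3 of them (Gm14148, Gm6316 and Gm4929). The other 5 substitutions of the stretch were each found in 1 copy. Gm10481 and Gm4335 shared 328 of their 50-base windows, Gm10481 and Gm6316 shared 311, and Gm14148 and Gm4929 shared 41.

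The transfected miRNA is shown for its seed, bases 2 to 8, in capitals. The mature 5p arm given by RefSeq (chr5:138165787-138165807, minus strand, GRCm38.p6) is the following.
miR-106b-5p: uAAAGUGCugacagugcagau

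The match to this seed, GCACTTT, was searched in the 13 pseudogene transcripts on the transcript strand, and as AAAGTGC on the other strand. No member held either. Among annotated processed pseudogenes of 500 to 1300 bases, 3.34% of 4252 held GCACTTT and 3.65% held AAAGTGC. Among the 37 of 2800 to 3400 bases, the length class of Gm13722 and Gm14735, these shares were 8.11% and 24.3%.

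Library totals ranged from 2579086 to 9459585 counts. A count of 0 allows up to 3 counts, or 0.317 CPM where the total was highest and 1.16 CPM where it was lowest. Counting error alone is covered by this limit and by the intervals given here, since reads carry no molecular identifiers. Ren1, the renin gene that defines JG cells, had 0 counts in all 16 libraries. The summed level of 19 cardiac muscle markers was 23222 to 33007 CPM in polyA control, 45366 to 78385 CPM in polyA miR-106b, 105015 to 111902 CPM in Ago2-IP control and 101981 to 112022 CPM in Ago2-IP miR-106b, and none of the 19 was at 0 in any group. Markers of 3 other cell types followed the same order. Those of endothelium (5 genes) summed to 188 to 278 CPM in polyA control, 350 to 658 CPM in polyA miR-106b and 809 to 888 CPM in Ago2-IP libraries. Those of leukocytes (5 genes) summed to 58 to 85.2, 123 to 196 and 262 to 296 CPM, and those of red cells (4 genes) to 26.5 to 42.3, 64.1 to 109 and 120 to 151 CPM. The 5 kidney epithelium markers summed to 114 to 250 CPM in polyA and 1.43 to 12.2 CPM in Ago2-IP libraries, with Slc34a1 at 0 in all groups but polyA control, and the 5 smooth muscle and mural markers to 943 to 1536 CPM and 590 to 650 CPM. The 3 renin cell markers, Ren1 among them, summed to 33.9 to 45.3 CPM in polyA control, 61.3 to 101 CPM in polyA miR-106b and 140 to 164 CPM in Ago2-IP. Of the renin cell markers Ren1 alone was at 0 in polyA control, polyA miR-106b and Ago2-IP control, and Akr1b7 was at 0 too in Ago2-IP miR-106b, while no smooth muscle or mural marker was at 0 in any group. The cardiac, endothelial, leukocyte and red cell markers differed in level between the transfections in polyA RNA and between polyA and Ago2-IP RNA, which are the comparisons in which members changed, and their part in those changes was not tested. In such bulk RNA, fewer cells of a type and less RNA per cell cannot be told apart.

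**Figure D2:**
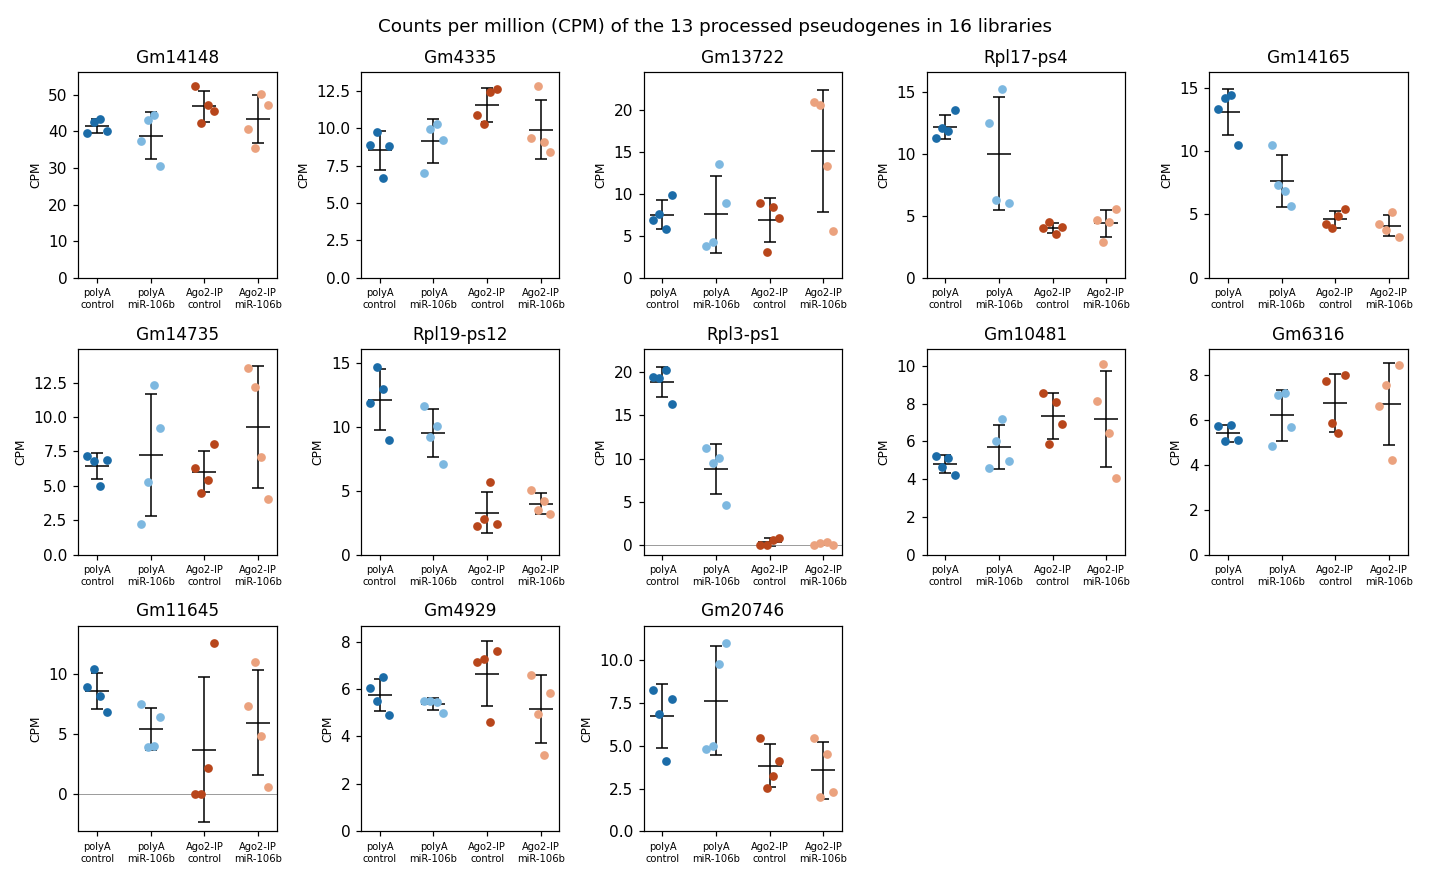
CPM (y axis, linear, from 0 or, where an error bar reaches lower, from below it) of the 13 pseudogenes in the 4 groups of 4 libraries. Points are libraries, horizontal marks are means and bars are 1 SD, and Rpl3-ps1 lies at 16.3 to 20.3 CPM in polyA control against at most 0.866 CPM in Ago2-IP libraries.

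The Gapdh copies summed to 55.4 to 86.8 CPM in a library and were the family with the highest summed level in every library. Gm14148 was at 39.7, 42.5, 43.5 and 40 CPM in polyA control (replicates 1 to 4) and at 37.3, 43, 44.5 and 30.5 CPM in polyA miR-106b. In Ago2-IP RNA it was at 52.5, 42.2, 47.1 and 45.7 CPM with the control and at 40.7, 35.4, 50.2 and 47.1 CPM with miR-106b. The ranges of the 4 groups overlapped. Per 1000 bases of transcript, its mean level of 42.3 CPM exceeded those of the other Gapdh copies, which lay between 5.77 CPM (Gm4929) and 9.73 CPM (Gm4335). Gapdh itself had 1158 to 1219 CPM in polyA control, 974 to 1468 CPM in polyA miR-106b and 1484 to 1685 CPM in the Ago2-IP libraries.

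With the control transfection all 5 Gapdh copies passed the test as higher in Ago2-IP than in polyA RNA (edgeR's quasi-likelihood F test on all 14897 genes tested, Benjamini-Hochberg adjusted p under 0.05). The log2 differences were 0.49 ± 0.12 (SE, n = 4 and 4) for Gm14148 (adjusted p = 0.000946), 0.75 ± 0.18 for Gm4335 (0.00089), 0.92 ± 0.24 for Gm10481 (0.00171), 0.64 ± 0.23 for Gm6316 (0.017) and 0.53 ± 0.23 for Gm4929 (0.0442). Gapdh was higher by 0.76 ± 0.11. Of all genes tested, 69.7% passed in this comparison in either direction and 35.1% passed as higher. Libraries did not overlap for Gm4335, at 6.67 to 9.73 CPM in polyA control and 10.3 to 12.6 CPM in Ago2-IP control, nor for Gm10481, at 4.22 to 5.24 and 5.86 to 8.57 CPM, whereas those of the other 3 copies overlapped. Of all genes tested, 70.5% did not overlap in this comparison.

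The calls for Gm14148, Gm6316 and Gm4929 depended on the scaling. They were lost when libraries were scaled by their totals only, where the values were 0.18, 0.33 and 0.21, all still above 0, and the median of all genes stood at -0.35. With no filter on low counts they were lost as well, with an adjusted p of 0.0527, 0.203 and 0.368. The call of Gm6316 was also lost without Ago2-IP control replicate 4 (0.0674). That of Gm4929 was lost without Ago2-IP control replicate 1 (0.0864), 2 (0.0959) or 4 (0.121), without polyA control replicate 1 (0.062), 2 (0.0926) or 4 (0.101), and without polyA miR-106b replicate 2 (0.101). It was lost as well with DESeq2's Wald test (0.0604) and with DESeq2's size factors (0.0518).

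With miR-106b none of the 5 copies passed in the same comparison, where 46.4% of all genes passed in either direction and 21.9% as higher. Their log2 differences lay between 0.08 (Gm4929) and 0.49 (Gm10481), with 0.31 ± 0.13 for Gm14148 (edgeR adjusted p = 0.0537). Gm14148 passed with DESeq2's Wald test (0.33, adjusted p = 0.0342), with DESeq2's size factors (0.34, 0.036) and among genes with at least 10 counts in every library (0.30, 0.0414). It also passed without Ago2-IP miR-106b replicate 2 (0.0175), polyA miR-106b replicate 2 (0.0347) or polyA miR-106b replicate 3 (0.0474), and Gm10481 passed without Ago2-IP miR-106b replicate 4 (0.68, 0.0334). Gapdh was higher by 0.48 ± 0.11. The change of the Ago2:polyA ratio between the transfections, tested as an interaction, ranged from -0.48 to -0.19 in the 5 copies and did not pass for any (27.3% of all genes passed), so that a difference between the transfections was not shown. In polyA RNA with miR-106b no Gapdh copy passed, where 40.5% of all genes did, and their log2 changes lay between -0.07 and 0.26.

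The ratio of each copy to its parent was compared in 44 comparisons, of 11 pairs in 4 contrasts, and 5 of them had libraries that did not overlap. These were Gm14148 and Gm14165 between RNA kinds with the control, Rpl19-ps12 in polyA RNA with miR-106b, and Rpl3-ps1 between RNA kinds with either transfection. The selection of Rpl3-ps1 through polyA RNA favours the last. By exact permutation, 0.0286 of the relabellings of a comparison separate its libraries, and no share over all genes was computed for these ratios. Gm14148 had 32.9 to 37.6 counts per 1000 Gapdh counts in polyA control and 25 to 31.8 in Ago2-IP control, without overlap. The log2 ratio of the counts, with 0.5 added to each, was lower by 0.27 in Ago2-IP (-5.10 ± 0.15 against -4.84 ± 0.09, SD, n = 4 each), with a two-sided exact permutation p of 0.0286, the smallest that 4 against 4 libraries can give. With miR-106b the same difference was -0.18 with overlapping libraries (exact permutation p = 0.286). The values are given without adjustment over the pairs, since the pairs were chosen with results of these data known. Gm4335 had 5.22 to 8.6 counts per 1000 Gapdh counts, Gm10481 2.52 to 6.84, Gm6316 2.54 to 5.42 and Gm4929 1.95 to 5.63 over all 16 libraries, and none of these 4 differed without overlap in any contrast.

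The 4 copies of ribosomal protein genes were lower in Ago2-IP than in polyA RNA. All 4 reached the level for inclusion through the polyA libraries alone, which favours this direction, so that their differences and adjusted p are given as a description of these members. Rpl17-ps4 was at 11.3, 12.1, 11.8 and 13.5 CPM in polyA control and at 12.5, 6.3, 15.2 and 6.04 CPM in polyA miR-106b. Its Ago2-IP levels were 4, 4.47, 3.52 and 4.12 CPM with the control and 4.65, 2.9, 4.53 and 5.53 CPM with miR-106b. Every Ago2-IP library was below every polyA library. The log2 difference was -1.27 ± 0.26 with the control (edgeR adjusted p = 0.000141) and -1.05 ± 0.28 with miR-106b (0.0039), against -1.62 ± 0.14 and -1.03 ± 0.14 for Rpl17. In this comparison with miR-106b, 39.5% of all genes did not overlap. In polyA miR-106b the 4 libraries of Rpl17-ps4 split into 2 near 6 CPM and 2 above 12 CPM, and its change with miR-106b was -0.24 ± 0.25, which did not pass.

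Rpl19-ps12 was at 11.9, 14.7, 13 and 8.96 CPM in polyA control and at 11.6, 9.19, 10.1 and 7.1 CPM in polyA miR-106b. In Ago2-IP RNA it was at 2.28, 2.79, 5.68 and 2.38 CPM with the control and at 5.04, 3.48, 4.21 and 3.2 CPM with miR-106b. The Ago2-IP libraries were again all below the polyA libraries. The log2 difference was -1.58 ± 0.27 with the control (edgeR adjusted p = 1.25e-05) and -1.14 ± 0.28 with miR-106b (0.00219). Rpl19 fell by 1.43 and 0.99 in the same comparisons. Counts of Rpl19-ps12 per 1000 Rpl19 counts were 30 to 39.5 in polyA control and 39.4 to 43.4 in polyA miR-106b, which just failed to separate on this scale, while the log2 ratio with 0.5 added to both counts was higher by 0.28 without overlap (exact permutation p = 0.0286).

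Gm14165, the Rplp0 copy, was at 13.3, 14.2, 14.4 and 10.5 CPM in polyA control and at 10.5, 7.35, 6.89 and 5.68 CPM in polyA miR-106b. Its Ago2-IP levels were 4.28, 3.91, 4.87 and 5.42 CPM with the control and 4.27, 3.77, 5.18 and 3.2 CPM with miR-106b. It fell in polyA RNA with miR-106b by 0.73 ± 0.21 on the log2 scale (edgeR adjusted p = 0.0145), and Rplp0 fell by 0.66 ± 0.15. Without polyA control replicate 1, 2 or 3 the call was lost (adjusted p of 0.066, 0.0853 and 0.0837). The difference between Ago2-IP and polyA RNA was -1.18 ± 0.22 with the control and -0.78 ± 0.25 with miR-106b, both past the threshold, and the second was lost without polyA miR-106b replicate 1 (0.1) or Ago2-IP miR-106b replicate 4 (0.0516). Relative to Rplp0 its log2 ratio was higher in Ago2-IP than in polyA RNA with the control, by 0.40 without overlap (-6.92 ± 0.26 against -7.32 ± 0.09, exact permutation p = 0.0286).

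Rpl3-ps1 departed most from its parent. It was at 19.5, 19.3, 20.3 and 16.3 CPM in polyA control and at 11.2, 9.45, 10.1 and 4.62 CPM in polyA miR-106b. In Ago2-IP RNA it was at 0, 0, 0.541 and 0.866 CPM with the control and at 0, 0.29, 0.324 and 0 CPM with miR-106b. The 3 levels did not overlap, with polyA control highest and the Ago2-IP libraries at or near 0. In counts over 4 libraries this was 533 in polyA control against 6 in Ago2-IP control, and 135 in polyA miR-106b against 2 in Ago2-IP miR-106b. The level in polyA RNA was thus 48.8 times that in Ago2-IP RNA with the control (95% exact interval 22.3 to 133) and 57.8 times with miR-106b (15.7 to 482). The edgeR adjusted p of these differences was 1.15e-10 and 1.94e-07. Of the 6 counts in Ago2-IP control 4 came from replicate 4, and without it the fitted log2 difference with the control went from -5.20 to -6.17.

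Rpl3, which encodes a protein of the large ribosomal subunit, was also lower in Ago2-IP RNA, at 55.7 to 71.8 CPM against 326 to 381 CPM in polyA control and 136 to 242 CPM in polyA miR-106b. Its log2 difference was -2.19 ± 0.13 with the control and -1.36 ± 0.13 with miR-106b. Per 1000 Rpl3 counts there were 58, 50.8, 55 and 50.2 counts of Rpl3-ps1 in polyA control, 52.7, 53.6, 41.5 and 33.9 in polyA miR-106b, 0, 0, 7.97 and 12.7 in Ago2-IP control, and 0, 4.13, 5 and 0 in Ago2-IP miR-106b. The ratio separated all polyA from all Ago2-IP libraries, by -3.29 on the log2 scale with the control and -3.46 with miR-106b, each with an exact permutation p of 0.0286. Rpl3-ps1 reached the level for inclusion through the polyA libraries alone, which favours this direction. The ratio, its p and the intervals above are therefore a description of this member.

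The 50 windows across C58A are 43.1 of every 1000 windows of Rpl3-ps1. Counts of Rpl3-ps1 per 1000 Rpl3 counts were 33.9 to 58 in the polyA and 0 to 12.7 in the Ago2-IP libraries. These figures have unlike denominators, windows of the copy and counts over all of Rpl3, so that they are not directly comparable. The deposited values are counts, and whether the reads came from the pseudogene or from an Rpl3 mRNA with the same base was not tested.

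**Figure D3:**
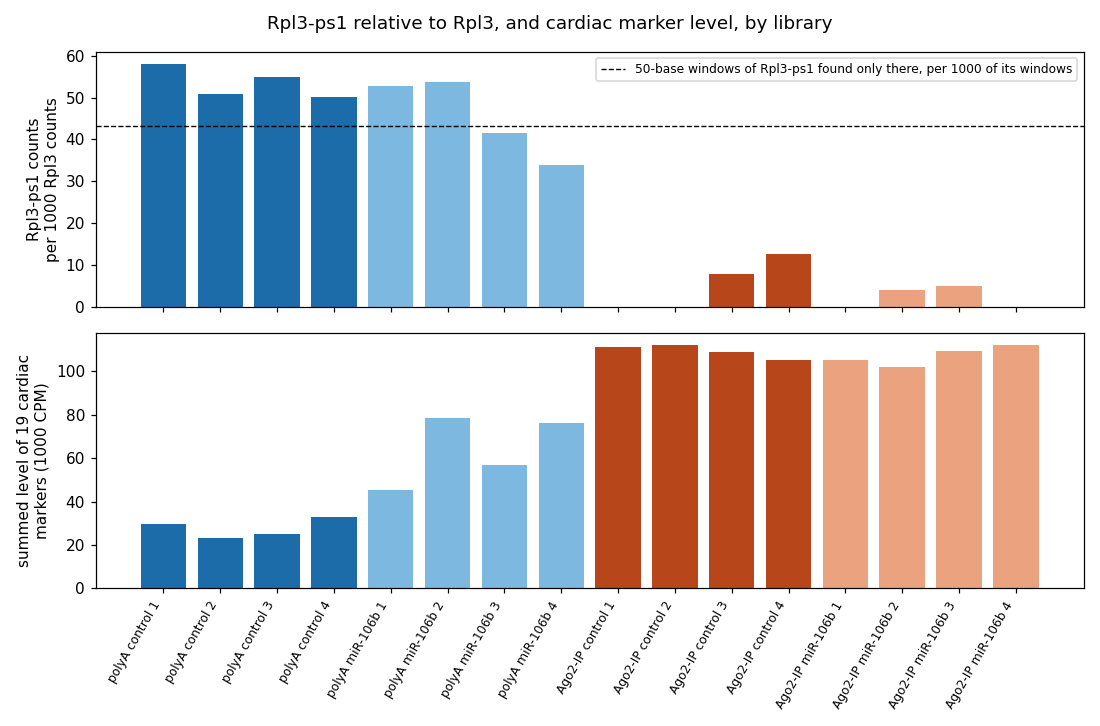
Counts of Rpl3-ps1 per 1000 counts of Rpl3 (top) and summed CPM of 19 cardiac markers in units of 1000 CPM (bottom) in each of the 16 libraries. The ratio is 33.9 to 58 in the 8 polyA and 0 to 12.7 in the 8 Ago2-IP libraries. The dashed line at 43.1 marks the windows of Rpl3-ps1 found only there per 1000 of its windows, a denominator unlike that of the bars.

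In polyA RNA with miR-106b Rpl3-ps1 fell by 1.04 ± 0.21 on the log2 scale (edgeR adjusted p = 0.002), with every miR-106b library below every control library. Its inclusion rested largely on polyA control, with a mean of 18.9 CPM against 8.83 CPM in polyA miR-106b. That favours a fall, so that this change is a description too. Rpl3 fell by 0.86 ± 0.15. Their ratio overlapped between the transfections (exact permutation p = 0.229). The lowest library of Rpl3-ps1, polyA miR-106b replicate 4, was also the lowest for Rpl3.

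Rpl3-ps1 and Gm14165 were thus the 2 of 13 members that passed in polyA RNA with miR-106b, both as lower. Of all genes tested, 40.5% passed in this comparison, 19% as higher and 21.5% as lower. The same 2 members were those whose libraries did not overlap, and 38.5% of all genes had such groups. For Gm14165 the lowest control and the highest miR-106b library both rounded to 10.5 CPM and were separated by less than that rounding. The median log2 change was -0.07 over the 13 members and -0.05 over all genes tested. Among protein-coding ribosomal protein genes 73 of the 85 tested fell and 1 rose, with a median of -0.56. The riser was Rpl3l, the muscle form of Rpl3, at 1.33 ± 0.18, which is named after its value was seen. Of the 80 further processed pseudogenes that copy a ribosomal protein gene and passed the filter, 7 fell and none rose (21 had an unadjusted p under 0.05), with a median of -0.61.

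In Ago2-IP RNA no member passed with miR-106b, and 0% of all genes did (edgeR, none of 14897, with 827 at an unadjusted p under 0.05). DESeq2's Wald test called no member either. No member had an unadjusted p under 0.05, and none had groups that did not overlap, which 3.24% of all genes had. The log2 change largest in size was that of Gm13722, at 1.12 ± 0.49 (edgeR adjusted p = 0.888). Without Ago2-IP miR-106b replicate 4, its lowest library of that group, Gm13722 passed at 1.40 (0.00116), and with no filter on low counts it passed at 1.10 (0.00426).

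Between Ago2-IP and polyA RNA, 9 of 13 members passed with the control, 5 as higher and 4 as lower. Of all genes 69.7% passed, 35.1% as higher and 34.6% as lower, so the share of members that passed was near that of all genes. With miR-106b 6 members passed, 1 as higher and 5 as lower, and of all genes 46.4% passed, 21.9% as higher and 24.4% as lower, again a similar share. With libraries scaled by their totals only, 2 members passed as higher and 5 as lower with the control, and 0 and 5 with miR-106b. The 4 ribosomal protein copies made up the lower members with the control and 4 of the 5 with miR-106b, and Gm20746 was the fifth. Since all 5 reached the level for inclusion through the polyA libraries alone, their direction is no support for a difference of the members as a group. Of the 6 members with a mean of at least 5 CPM in each of the 4 groups, 4 passed as higher with the control and 1 with miR-106b, and none as lower. The median over the 13 members was 0.19 with the control and 0.25 with miR-106b, against -0.03 and -0.04 over all genes.

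The processed pseudogenes below the limit were tested in the same fit. With the control, of 80 ribosomal protein copies 44 were lower in Ago2-IP and none higher, with a median log2 difference of -1.48. Of all genes 34.6% were lower in this comparison. Of 32 Gapdh copies 7 were higher and none lower, with a median of 0.45, and the share that was higher was below that of all genes (35.1%). With miR-106b 12 of the ribosomal protein copies were lower and 1 was higher, and of the Gapdh copies 1 was lower and 1 higher, each a smaller share than that of all genes (24.4% lower and 21.9% higher). With the control, those protein-coding ribosomal protein genes that were tested were lower in 81 of 85 cases and higher in 1 case (Rpl3l, 2.33 ± 0.14), with a median of -1.09. These copies also had to reach 1 CPM in 3 libraries of some group, and many of their windows are shared with parents and other copies.

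**Figure D4:**
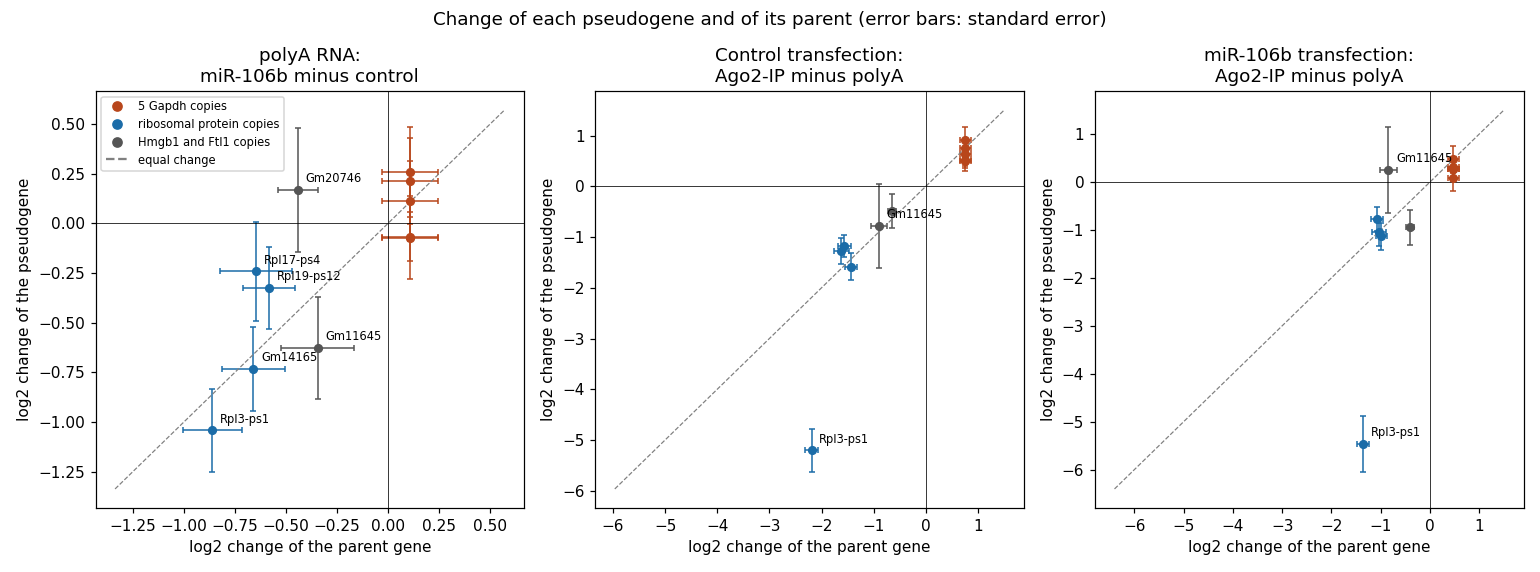
Log2 change of each of 11 pseudogenes (y axis) against that of its parent (x axis) with miR-106b in polyA RNA and between Ago2-IP and polyA RNA for either transfection, with standard errors. Between Ago2-IP and polyA RNA with the control all 11 pairs had differences of the same sign, which the selection of 6 of them through polyA RNA favours, and Rpl3-ps1 lay far below the line of equal change.

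Pseudogene and parent had log2 differences of the same sign in all 11 pairs between Ago2-IP and polyA RNA with the control, in 10 of 11 with miR-106b (all but Gm11645), and in 8 of 11 in polyA RNA with miR-106b (all but Gm14148, Gm4929 and Gm20746), whether or not either passed the test. The 5 Gapdh copies share their parent and part of their windows, so these pairs are not independent. The 6 other copies reached the level for inclusion through the polyA libraries alone, which favours a lower level in Ago2-IP RNA, so that the count of pairs with the same sign between RNA kinds is partly set by the selection. Of the 4 ribosomal protein parents, all passed the test for a change of the Ago2:polyA ratio with miR-106b, each as higher, from 0.45 (Rpl19) to 0.83 (Rpl3), where 27.3% of all genes passed in either direction. Of the calls over all genes 27.9% were higher, or 46.3% with libraries scaled by their totals only. None of the copies passed, with values from -0.26 (Rpl3-ps1) to 0.44 (Rpl19-ps12) and standard errors of 0.34 to 0.84. In polyA RNA the log2 changes of these 4 parents with miR-106b ran from -0.58 (Rpl19) to -0.86 (Rpl3), each past the threshold. In Ago2-IP RNA they ran from -0.03 (Rplp0) to 0.12 (Rpl3), and no gene passed there. The ratio of these parents thus rose while their polyA level fell.

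The Hmgb1 copy Gm11645 was the member that varied most between the replicates of Ago2-IP control. It was at 8.89, 10.4, 8.18 and 6.85 CPM in polyA control and at 7.46, 3.94, 4.02 and 6.39 CPM in polyA miR-106b. Its Ago2-IP levels were 0, 0, 2.16 and 12.6 CPM with the control and 7.37, 11, 4.85 and 0.582 CPM with miR-106b. The coefficient of variation was 17.1% in polyA control and 163% in Ago2-IP control. Hmgb1 itself kept to 35.5 to 46.1 CPM in Ago2-IP control, with 82 to 111 CPM in polyA control. Gm11645 passed no test in the main fits. Its change in polyA RNA with miR-106b was -0.63 ± 0.26 (edgeR adjusted p = 0.0681). It passed there without polyA miR-106b replicate 1 (-0.78, 0.027) and, barely, among genes with at least 10 counts in every library (-0.63, 0.05 after rounding). Gm11645 too was included through the polyA libraries alone, which favours a lower level in Ago2-IP RNA. Its difference between Ago2-IP and polyA RNA with the control rested on Ago2-IP control replicate 4, the library at 12.6 CPM. It was -0.78 ± 0.82 with that library (0.413) and -3.18 without it (0.00272), and the change of the ratio with miR-106b went from 1.03 ± 1.22 (0.579) to 3.43 (0.0211).

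Gm20746, the ferritin light chain copy, was at 8.25, 6.87, 4.09 and 7.73 CPM in polyA control and at 4.83, 4.99, 9.76 and 11 CPM in polyA miR-106b. In Ago2-IP RNA it was at 5.43, 2.51, 3.25 and 4.12 CPM with the control and at 5.43, 2.03, 4.53 and 2.33 CPM with miR-106b. The ranges of the 4 groups overlapped. Gm20746 reached the level for inclusion through the polyA libraries alone, which favours a lower level in Ago2-IP RNA. Its difference between Ago2-IP and polyA RNA, given as a description, was -0.94 ± 0.37 with miR-106b (edgeR adjusted p = 0.0371) and -0.49 ± 0.33 with the control, which did not pass with the main scaling and passed at -0.81 when libraries were scaled by their totals only (0.0351). Without Ago2-IP miR-106b replicate 2 or 4, or polyA miR-106b replicate 3 or 4, the call was lost, with an adjusted p of 0.127, 0.111, 0.0967 and 0.122. Ftl1 was lower by 0.42 ± 0.08 and 0.65 ± 0.08 in these comparisons.

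Gm13722 and Gm14735, the members with no full-length parent, are described together. Gm13722 was at 6.82, 7.61, 5.76 and 9.84 CPM in polyA control and at 3.73, 4.2, 13.5 and 8.88 CPM in polyA miR-106b. Its Ago2-IP levels were 8.85, 3.07, 8.38 and 7.15 CPM with the control and 20.9, 20.6, 13.3 and 5.53 CPM with miR-106b. Gm14735 was at 7.14, 6.77, 5 and 6.85 CPM in polyA control and at 2.2, 5.25, 12.3 and 9.24 CPM in polyA miR-106b. In Ago2-IP RNA it was at 6.28, 4.47, 5.41 and 8.01 CPM with the control and at 13.6, 12.2, 7.12 and 4.07 CPM with miR-106b. Within polyA miR-106b, and likewise within Ago2-IP miR-106b, the libraries came in the same order for both genes, whereas in the control groups of either RNA kind the orders differed. Per 1000 bases these were the lowest members, with means of 3.02 and 2.35 CPM.

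Gm13722 was the 1 member that passed as higher in Ago2-IP than in polyA RNA with miR-106b, by 1.17 ± 0.41 (edgeR adjusted p = 0.0277), with overlapping libraries. The call was lost without Ago2-IP miR-106b replicate 1 or 2 or polyA miR-106b replicate 1 or 2 (adjusted p of 0.0796, 0.0889, 0.0962 and 0.0879). It was lost as well when libraries were scaled by their totals only (1.02, 0.0608). Gm10800, a locus with far more counts, ranged from 225 to 15036 CPM over the Ago2-IP libraries. It was at 1522, 225, 1647 and 11168 CPM in Ago2-IP control, 10644, 15036, 7705 and 1482 CPM in Ago2-IP miR-106b, and 646, 2404, 7293 and 5633 CPM in polyA miR-106b. Of the 4 Ago2-IP libraries with the most Gm10800, all but Ago2-IP control replicate 4 were miR-106b libraries, so that this split nearly followed the transfection. The share of all genes without overlap in this split was not computed. In those 4 libraries Gm14735 was at 7.12 to 13.6 CPM and Gm11645 at 4.85 to 12.6 CPM, above the 4.07 to 6.28 CPM and 0 to 2.16 CPM of the 4 others. The 11 other members overlapped between these libraries, Gm13722 among them, with 7.15 to 20.9 against 3.07 to 8.85 CPM. When these 4 libraries were left out, an alternative chosen after the data were seen, Gm13722 turned to -0.24 with miR-106b (edgeR adjusted p = 0.821). Rpl17-ps4 stood at -0.70 (0.297), Gm14165 at -1.10 (0.0812), Rpl19-ps12 at -1.41 (0.0569) and Gm20746 at -1.50 (0.115), and Rpl3-ps1 alone passed. That comparison then held 1 Ago2-IP miR-106b library, assumed to vary like the others. With the control 8 of 13 members passed. Gm11645 was gained at -3.28 (0.000141), and the calls of Gm6316 (0.45, 0.109) and Gm4929 (0.36, 0.193) were lost.

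**Figure D5:**
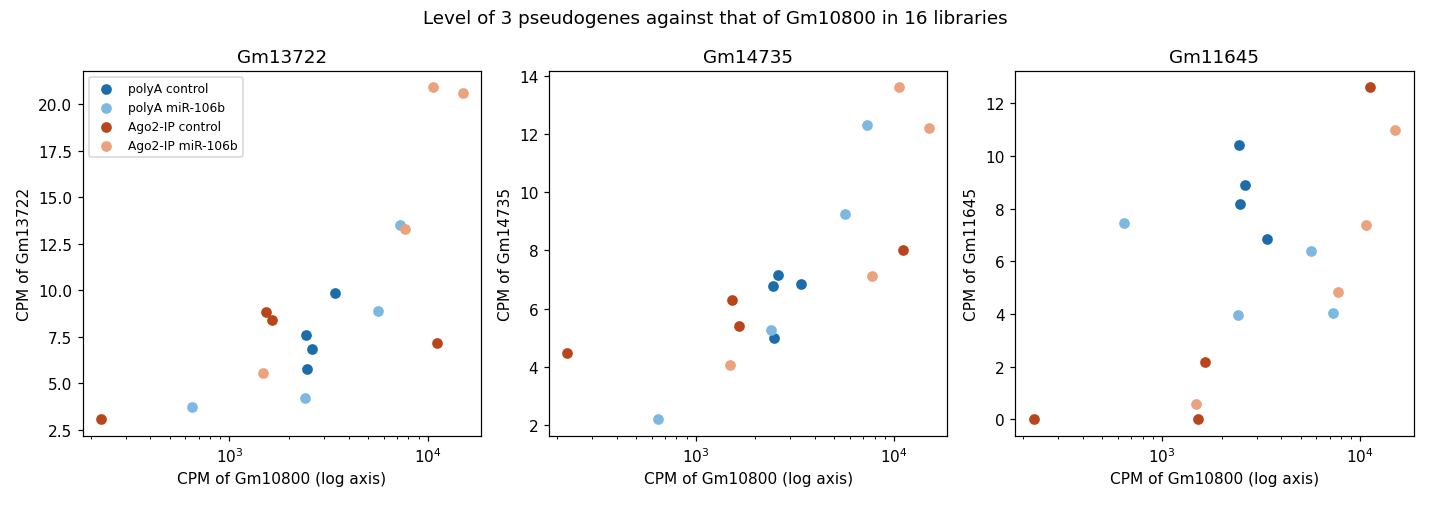
CPM of Gm13722, Gm14735 and Gm11645 (y axes) against CPM of Gm10800 (x axes, log scale) in the 16 libraries, coloured by group. Ago2-IP control replicate 4 and Ago2-IP miR-106b replicates 1 to 3 lie at 7705 to 15036 CPM of Gm10800, and the remaining Ago2-IP libraries at 225 to 1647 CPM.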

How the data were processed

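Raw counts per gene were deposited for 16 libraries in 4 groups of 4. Per the study's methods, the authors sequenced 50-base single-end reads, from libraries that are not strand-specific per the labels, removed ribosomal RNA reads, aligned to the GRCm38 transcriptome and counted with HTSeq. The submitters' processing notes name TopHat2 2.0.10, and the study's methods give a later version, so which one made the counts is not settled. How reads that fit several loci were treated is not given in the sources used here, and it decides what a copy receives. The members, lists and tests were chosen with earlier results of these data known. Named were all 13 members, the 2 processed pseudogenes just below 5 CPM and the parents.

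Genes with at least 1 CPM in at least 3 of 4 libraries of a group (14897) were tested with edgeR 4.0.16 in R 4.3.3 (TMM, robust quasi-likelihood F test, Benjamini-Hochberg over all genes, threshold 0.05, prior count 0.125). Contrasts within an RNA kind used its 8 libraries, and those between kinds all 16. Ratios to the parent were compared by two-sided exact permutation over libraries (70 relabellings, scipy 1.17.1). Parents were found with blastn 2.17.0 against GENCODE M21 transcripts. Alternatives were DESeq2 1.42.0, other scalings and filters, a replicate block and left-out libraries. On simulated counts with 200 of 14897 genes changed 3-fold, 199 were recovered in the polyA contrast (5 false calls), 195 in the Ago2-IP contrast (11) and 156 for the change of the ratio (5). The changed genes were drawn from those with higher counts, and all genes were given the same spread. These rates therefore do not carry over to members with fewer counts, more variation or smaller changes. Within groups, no library was a duplicate of another, and pairs across groups were not compared. By the stated design, replicates are separate cultures.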

Additional observations from a re-analysis of the deposited data

Results flagged for a closer look

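In 3 of 52 groups of 4 libraries (13 members in 4 groups), the gap from 1 library to the nearest other was large relative to the range of the group, which chance gives in about 1 in 20 groups, so that 3 is near that number. Rpl19-ps12 was at 5.68 CPM in Ago2-IP control replicate 3, against 2.28 to 2.79 CPM in the other 3 libraries. Gm4929 was at 4.6 CPM in the same library, against 7.14 to 7.58 CPM. Gm4929 was also at 4.97 CPM in polyA miR-106b replicate 4, where it had 14 counts, against 5.46 to 5.51 CPM in a group that was otherwise tight.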

How the results depend on the processing

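Members past the threshold were recounted under each alternative. In polyA RNA with miR-106b the 2 members became 1 to 3 when 1 library was left out, 0 among members of at least 10 CPM (1 gene) and 1 among members with a median of at least 5 CPM. In Ago2-IP RNA with miR-106b the count of 0 became 1 with no filter on low counts (Gm13722), and 0 to 1 with 1 library left out. Between Ago2-IP and polyA RNA, 9 with the control became 1 among members of at least 10 CPM, and 6 with miR-106b became 0 among those and 1 without the 4 Ago2-IP libraries highest in Gm10800, where Gm13722 turned to -0.24. For the change of the ratio, 0 became 1 with no filter (Gm13722) and 0 to 1 with 1 library left out (Gm11645, without Ago2-IP control replicate 4). The ratios to the parent without overlap were 5, or 8 with 5 added to the counts and 5 to 7 with 1 library left out. Of 370 recomputed changes of called members, 331 kept direction and threshold, 38 lost the threshold and 1 changed sign. Scaling by totals only moved the share of higher calls over all genes from 50.3% to 37.9% (Ago2-IP against polyA, control), from 47.3% to 34% (miR-106b) and from 27.9% to 46.3% (change of the ratio), with medians of -0.35, -0.19 and 0.10. The deviations of same-numbered libraries from their group means had correlations of -0.386 to 0.218. Libraries of unlike number were not compared, so that this does not settle whether the numbers pair them. With a replicate block 2, 0, 8, 5 and 0 members passed in the 5 comparisons, Gm4929 with the control (edgeR adjusted p = 0.0647) and Gm13722 with miR-106b (0.0543) being lost. The depth, with group sums from 2 to 1167 counts per member, limits the precision of the lowest members.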
